A study of Mus musculus with 4 samples.

Results

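The genes described here encode the solute carriers of metals and of the vitamins folate, thiamine and ascorbate in the mouse. They were taken as the non-control probes on a whole-genome expression array whose gene name begins with Slc11a, Slc19a, Slc23a, Slc30a, Slc31a, Slc39a, Slc40a, Slc41a or Slc46a, which gave 63 probes for 40 genes out of 41174 probes carrying 28146 gene names. Expression was measured in 2 lines of EPH-4, an immortalized but non-malignant mouse mammary epithelial cell line. EV-50 is a stable clone carrying the empty H1-2 vector, and shGR-19 is a stable clone carrying an H1-2 vector with a short hairpin RNA against the glucocorticoid receptor (GR). Both were grown in serum-free medium with 2 µg/mL puromycin and without added glucocorticoid, so that the comparison asks which transcripts depend on GR that has no ligand. Each genotype is a single clone, so a difference between clones and an effect of GR depletion cannot be told apart. The labels give 2 arrays per line, each from 300 ng of total RNA labelled with Cy3, and do not say that the duplicates came from separate cultures, so the p-values measure only the spread between these arrays.

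Cells take up and export metals and water-soluble vitamins through dedicated membrane carriers. The Slc39 (ZIP) proteins move zinc into the cytosol from outside the cell or from organelles, and the Slc30 (ZnT) proteins move it the other way, out of the cell or into vesicles. Free zinc activates the transcription factor MTF-1, which binds metal response elements in the promoters of Slc30a1 and of the metallothionein genes Mt1 and Mt2. The mammary epithelium secretes zinc, copper, iron and folate into milk, and several of these carriers are known for their part in it.

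The transcripts on which the results turn were each read by a 60-base probe, and the first 30 bases of those probes are shown so that the measured stretch can be identified. Positions are those the array files give, on the mouse build mm9.
Slc39a4, chr15:76442866-76442925, minus strand: ctctgctttaccttcttaagccacctaatt
Slc39a9, chr12:81783743-81783802, plus strand: tcatgctagtgaagttctgaacatgggact
Slc23a3, chr1:75122133-75122192, minus strand: ctttcctcctcttaagacttgagcagaggc
Slc46a1, chr11:78285032-78285091, plus strand: cacccttgacctcagccttggcagtactca
Slc46a3, chr5:148690145-148690204, minus strand: cgtctgcacaatgggcttgctggcctctca
Slc41a2, chr10:82694036-82694095, minus strand: taagacacatgtagtgggcagaaatagact
Slc30a1, chr1:193733593-193733652, plus strand: attaaaaacgtgccaaacaaacagcccgaa
Slc39a10, chr1:46865343-46865402, minus strand: atttgagggcaacacatgcgaccaggtgtc

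The values come in 2 forms. The scanner files give each array's signal, stated here as log2 relative to that array's 75th percentile. The authors' value table gives a log2 value per probe and sample relative to the probe's median over the 4 samples. Neither scale allows the level of one probe to be set against that of another. The targeted gene, Nr3c1, which encodes GR, had lower values for shGR-19 in the value table. Its brightest probe read 0.98 and 0.95 for EV-50 and -0.95 and -0.98 for shGR-19 there (log2 difference -1.94, SE 0.048, limma adjusted p = 0.00216). That probe's scanner values were 1.81 and 1.92 in EV-50 and 1.46 and -0.03 in shGR-19, so the scanner array labelled shGR-19 replicate 1 lay close to the EV-50 arrays.

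The scanner arrays labelled replicate 1 stood apart from the rest. Over 10270 brighter probes, the difference between the 2 lines had an SD of 0.080 (log2) between the arrays labelled replicate 1, against 0.446 between those labelled replicate 2. The duplicates of one line differed by more, with an SD of 0.516 between the EV-50 duplicates and 0.621 between those of shGR-19. The table's duplicates had SDs of 0.096 and 0.086, and the lines differed by 0.444 and 0.447. The difference between lines on the scanner arrays labelled replicate 2 followed that in the table with a correlation of 0.959 over these probes, while that on the arrays labelled replicate 1 followed it with a correlation of 0.121. Whether the 2 scanner files labelled replicate 1 belong to the samples they are labelled with cannot be told from the files. Every scanner mean, SE, p and difference between duplicates that includes them carries that doubt. Counts over the transporter probes and the genes described in full are therefore given from both sources. Most other genes are given from the table alone. All 4 scanner arrays came from 1 slide and 1 scan. They held between 23290 and 27358 spots well above background and no saturated spot.

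Most of the carriers were measurable, which here means that a probe passed the filter on dim signal. Of the 63 probes, 46 were well above background on all 4 arrays and 12 on none. A total of 50 probes for 33 genes passed the filter, which asked that both arrays of at least 1 line read well above background. The 7 genes with no passing probe were Slc23a1, Slc30a3, Slc30a8, Slc30a10, Slc39a5, Slc39a12 and Slc46a2. They include the pancreatic islet zinc carrier Slc30a8 and the neuronal Slc30a3, which loads zinc into synaptic vesicles.

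**Figure D1:**
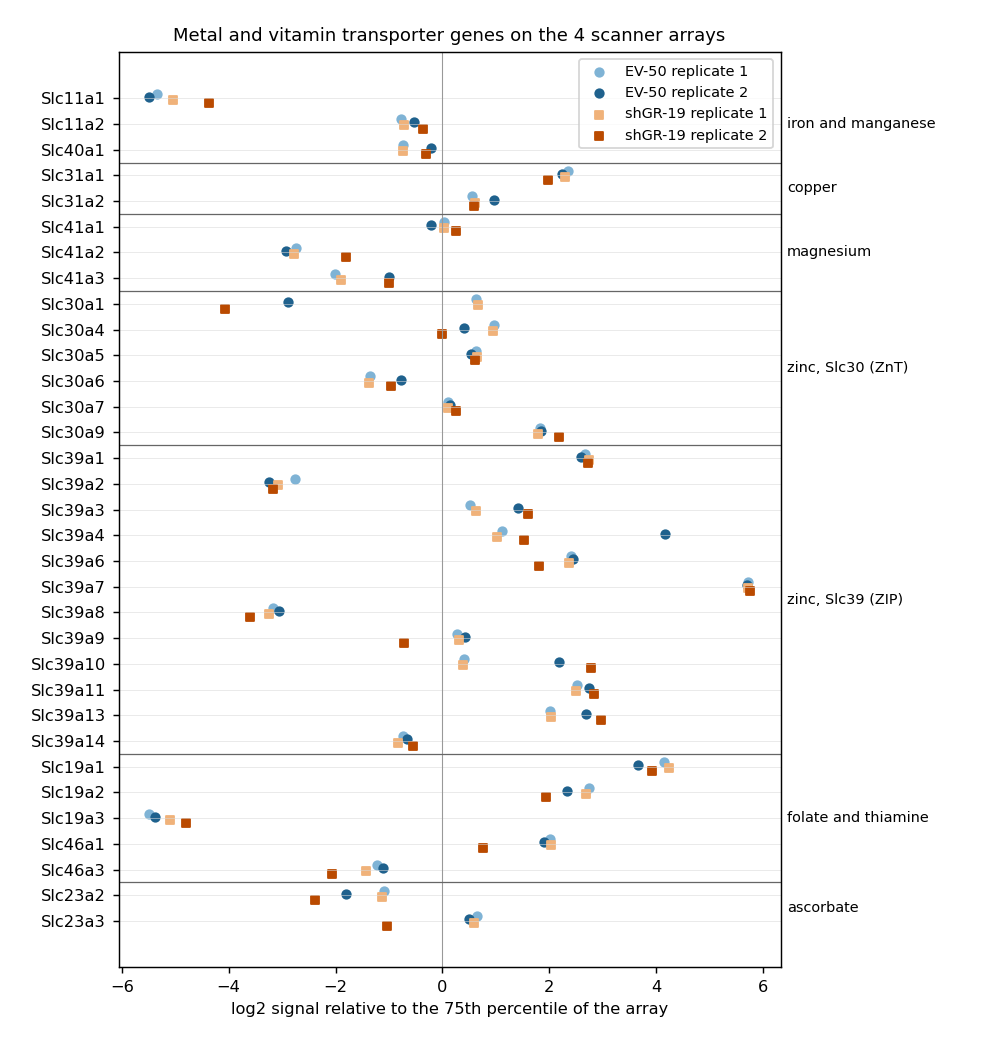
Log2 signal relative to the array's 75th percentile for the brightest passing probe of each of the 33 genes on the 4 scanner arrays (circles EV-50, squares shGR-19, pale replicate 1, dark replicate 2). Levels are comparable along a line and not between genes. The pale points of the 2 lines nearly coincide for most genes, Slc30a1 lies lower on both dark points, and Slc39a4 reaches 4.16 on 1 array.

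In the value table, 5 of the 50 transporter probes differed by more than 2-fold between the lines with an adjusted p below 0.01, against 4.26% of all 24441 probes tested (limma with Benjamini-Hochberg adjustment over all of them). The zinc carriers Slc39a4 and Slc39a9, the folate carrier Slc46a1 and the ascorbate-family carrier Slc23a3 were lower in shGR-19, and the magnesium carrier Slc41a2 was higher. By direction, 1 probe was higher (background 1.87%) and 4 were lower (background 2.39%). Without the limit on the fold, 1 probe passed as higher and 6 as lower, against 5.53% and 6.04% of all probes. The median difference of the 50 probes was -0.03, beside 0.01 over all probes. In the scanner files, 0 of the 50 passed, as did 0 of all 24441 (0%), and 0 of the 50 had an unadjusted p below 0.05 against 0.855% of all probes. Of the 50, 29 reached that unadjusted p in the table, against 48.4% of all probes. The lines did not overlap in the table for 19 of the 50 probes that were higher in shGR-19 (background 36.6%) and 20 that were lower (background 35.3%). Among the scanner values 4 were higher (background 11.8%) and 4 lower (background 6.15%) without overlap. The calls in the table rest on both columns of each line: with any 1 column left out, 0 of all 24441 probes were called, transporters included, with limma adjusted p from 0.0276 to 0.0471 for the 6 genes whose brightest probe had passed. With all 41174 probes tested and no filter on dim ones, 15 probes were called higher and 28 lower, of which 0 were transporter probes. An array of pooled cells cannot tell fewer cells expressing a transcript from less of it in each cell.

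Slc39a4, the zinc importer whose loss causes the zinc deficiency disease acrodermatitis enteropathica, had the widest difference. The table gave it 1.30 and 1.22 in EV-50 and -1.22 and -1.27 in shGR-19. Both shGR-19 values lay far below both EV-50 values, a log2 difference of -2.51 (SE 0.057, limma adjusted p = 0.00199), which is 5.70-fold lower. The scanner arrays gave 1.11 and 4.16 in EV-50 and 1.02 and 1.52 in shGR-19. There the array labelled EV-50 replicate 2 alone was high and the lines overlapped (log2 difference -1.37, SE 1.07, n = 2 arrays per line in limma). The arrays labelled replicate 2 thus differed by -2.64 and those labelled replicate 1 by -0.09.

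Slc39a9, a ZIP carrier found on the Golgi and the cell surface, had table values of 0.61 and 0.59 in EV-50 and -0.76 and -0.59 in shGR-19. The groups did not overlap (log2 difference -1.28, SE 0.080, limma adjusted p = 0.00487). Its other, dimmer probe read above background on 3 arrays and did not pass, with a difference of -0.08 (SE 0.10), so the probes of this gene disagree. Scanner values of the brighter probe were 0.27 and 0.43 in EV-50 and 0.31 and -0.73 in shGR-19. Only the array labelled shGR-19 replicate 2 was low.

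The proton-coupled folate transporter Slc46a1, which carries folate out of the acidic gut lumen and out of endosomes, read 0.59 and 0.56 in EV-50 and -0.63 and -0.56 for shGR-19 among the table's values. This was a log2 difference of -1.17 (SE 0.053, limma adjusted p = 0.00351), or 2.26-fold lower. Its scanner values were 2.01 and 1.90 in EV-50 and 2.03 and 0.75 in shGR-19. Again only 1 scanner array was low, the one labelled shGR-19 replicate 2.

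Slc46a3, a lysosomal relative of the folate transporter, had table values of 0.57 and 0.44 for EV-50 and -0.44 and -0.48 for shGR-19. It passed the adjusted p but was just under 2-fold, with a log2 difference of -0.97 (SE 0.067, limma adjusted p = 0.00562). The scanner arrays read -1.22 and -1.11 in EV-50 and -1.42 and -2.07 in shGR-19. Here both shGR-19 arrays lay below both EV-50 arrays, by different amounts. Other folate and thiamine carriers in the table lay closer to 0. The reduced folate carrier Slc19a1 differed by 0.27 and the thiamine carrier Slc19a2 by -0.26, and neither passed. The other thiamine carrier, Slc19a3, was dim and differed by 0.64 (SE 0.63), which did not pass.

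Slc23a3, a member of the ascorbate transporter family, had table values of 0.73 and 0.67 in EV-50 and -0.75 and -0.67 in shGR-19. The log2 difference was -1.41 (SE 0.057, limma adjusted p = 0.00317), which is 2.67-fold lower. Its scanner values were 0.64 and 0.49 in EV-50 and 0.59 and -1.04 in shGR-19. The ascorbate transporter Slc23a2 itself differed by -0.44 in the table (SE 0.073, limma adjusted p = 0.0236) and did not pass.

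Slc41a2, a magnesium carrier, was the only transporter gene higher in shGR-19 past the threshold in the table. It read -0.72 and -0.65 in EV-50 and 0.65 and 0.68 in shGR-19, a log2 difference of 1.35 (SE 0.053, limma adjusted p = 0.00309), or 2.56-fold higher. Scanner values were -2.74 and -2.92 in EV-50 and -2.77 and -1.80 in shGR-19, so the array labelled shGR-19 replicate 2 stood above the other three. The related Slc41a1 and Slc41a3 differed by 0.30 and 0.18 in the table, and neither passed.

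**Figure D2:**
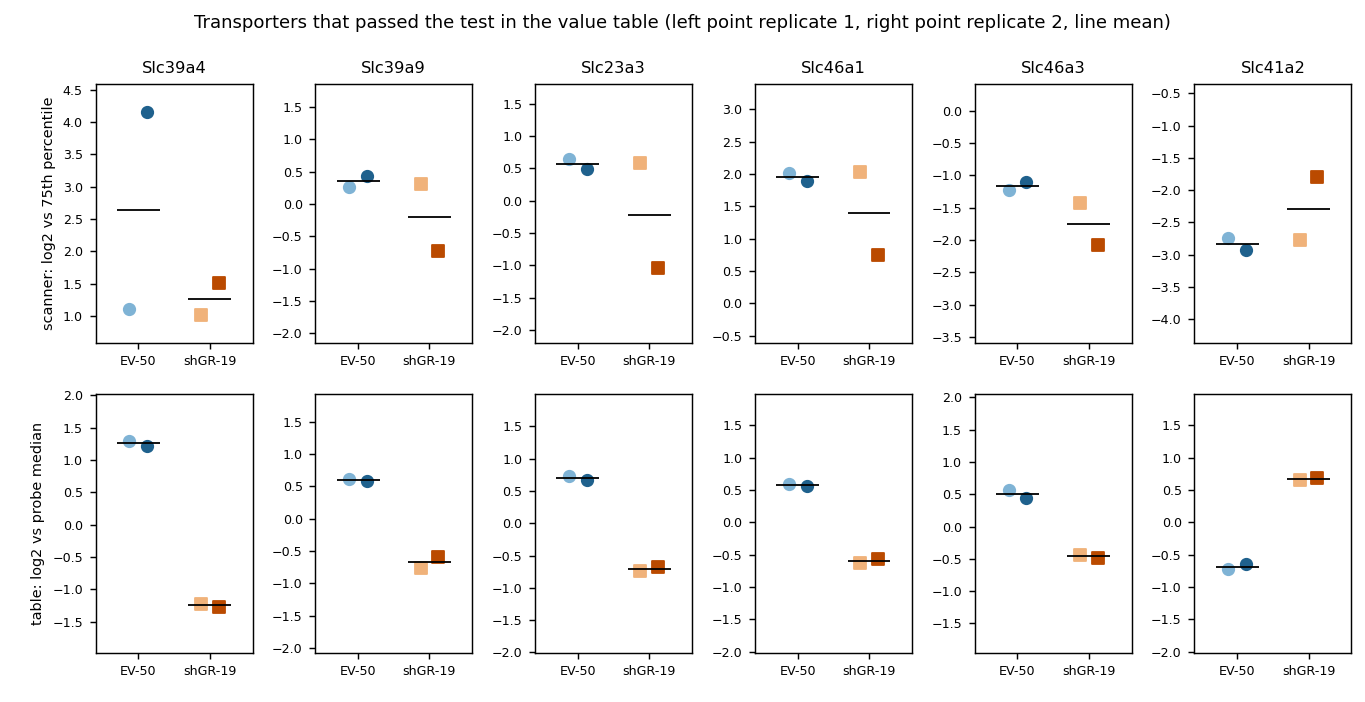
The 6 genes whose brightest probe passed an adjusted p of 0.01 in the value table, shown on the scanner arrays (top, log2 relative to the array's 75th percentile) and in the table (bottom, log2 relative to the probe median). Points are single arrays or columns, with replicate 1 on the left, and the line is their mean. In the table the duplicates nearly coincide, and on the scanner arrays 1 array of a line departs from its duplicate in each gene.

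Slc11a1, the metal carrier of macrophage phagosomes, was a dim probe on which the sources differed in sign. The table gave it 0.69 and 0.22 in EV-50 and -1.84 and -0.22 in shGR-19, a log2 difference of -1.48 that did not pass (SE 0.64, limma adjusted p = 0.159). Its scanner values were -5.34 and -5.50 in EV-50 and -5.05 and -4.38 in shGR-19, which is a difference of 0.71 in the opposite direction. It exceeded background clearly on 3 arrays. The divalent metal carrier Slc11a2 had 3 passing probes that disagreed in the table. One of them passed as lower (-0.59, limma adjusted p = 0.00977), and the brightest differed by 0.20 and did not pass. Ferroportin (Slc40a1), the iron exporter, differed by -0.13 in the table and did not pass.

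The copper carriers and most zinc carriers did not pass an adjusted p of 0.01 in the table. The high-affinity copper importer Slc31a1 differed by -0.18 in the table, and its relative Slc31a2 by -0.49 (limma adjusted p = 0.0342), and neither passed. All 4 measurable copper probes had negative table differences, the largest being -0.64. Among the 6 measurable Slc30 genes, Slc30a1, Slc30a4, Slc30a5, Slc30a6, Slc30a7 and Slc30a9, none passed, and table differences ran from -1.09 for Slc30a1 to 0.09 for Slc30a9. Beside Slc39a4 and Slc39a9, the 10 other measurable Slc39 genes lay between -0.51 for Slc39a6 and 0.40 for Slc39a10. Those with values above 0 were Slc39a1, Slc39a2, Slc39a3, Slc39a7, Slc39a10, Slc39a11, Slc39a13 and Slc39a14, and those below were Slc39a6 and Slc39a8. Taking the brightest probe of each of the 33 genes, 1 was higher and 5 were lower past an adjusted p of 0.01, against 6.11% and 6.51% of 16758 genes.

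**Figure D3:**
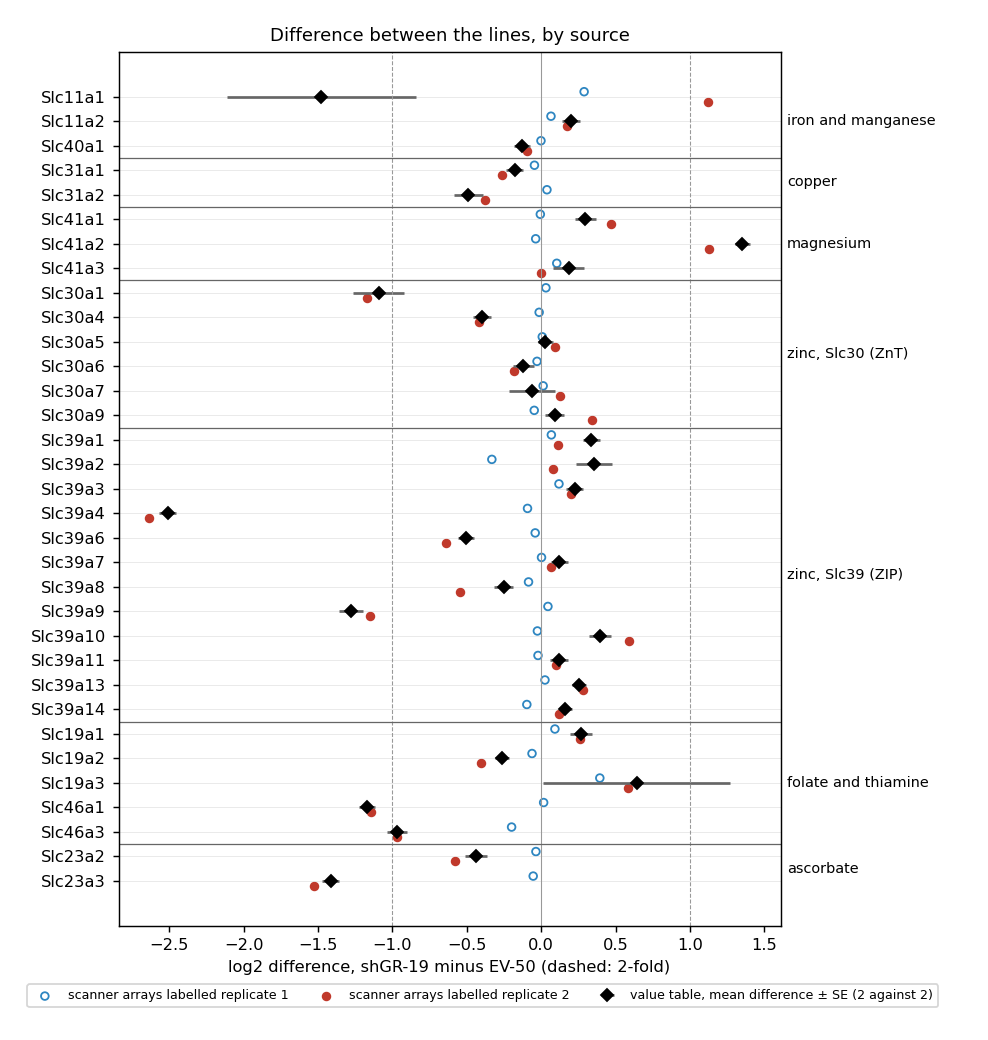
Log2 difference between the lines (shGR-19 minus EV-50) for the brightest passing probe of each gene. Diamonds with bars are the value table's mean difference and its limma standard error, open circles the difference between scanner arrays labelled replicate 1, and filled circles that between arrays labelled replicate 2. The open circles stay between -0.33 and 0.39, and most filled circles lie by the diamonds.

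Set side by side for the 50 probes, the arrays labelled replicate 2 followed the table with a correlation of 0.791, and those labelled replicate 1 with a correlation of 0.126. Between the arrays labelled replicate 1, 0 of the 50 transporter probes differed by more than 2-fold, against 3.57% of all probes. Between the arrays labelled replicate 2, 7 of the 50 did so, against 5.53% of all probes. These belonged to Slc39a4, Slc39a9, Slc23a3, Slc46a1, Slc30a1, Slc11a1 and Slc41a2. In the table, 8 did so between the columns labelled replicate 1 (background 7.42%) and 6 between those labelled replicate 2 (background 7.38%).

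The zinc exporter Slc30a1 was described in full after its values had been seen, because its scanner duplicates differed most among the transporter probes. On the scanner arrays it read 0.63 and -2.90 in EV-50 and 0.67 and -4.07 in shGR-19. Replicate 2 lay below replicate 1 by a log2 difference of -3.53 in EV-50 and -4.73 in shGR-19. Its second probe gave -2.64 and -3.29. In the table the same 2 columns of a line differed by -0.41 in EV-50 and -0.15 in shGR-19, and Slc30a1 read 0.82 and 0.41 in EV-50 and -0.41 and -0.56 in shGR-19. That was a difference between lines of -1.09 (SE 0.17, limma adjusted p = 0.0209), which did not pass.

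Slc39a10, a zinc importer of the cell surface and also described after its values were seen, went the other way on the scanner arrays. It read 0.41 and 2.18 in EV-50 and 0.39 and 2.77 in shGR-19. Replicate 2 lay above replicate 1, by 1.77 within EV-50 and by 2.39 within shGR-19. Its table duplicates differed by 0.01 and 0.15, and the lines by 0.40 (SE 0.073, limma adjusted p = 0.0291).

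The metallothioneins Mt1 and Mt2, small cytosolic proteins that bind zinc and copper, were high and low on the same scanner arrays as Slc30a1. Mt1 read 6.26 and 2.49 in EV-50 and 6.21 and 2.36 in shGR-19 on the scanner arrays. Mt2 read 5.64 and 1.38 in EV-50 and 5.60 and 1.95 in shGR-19. Both were high on the 2 arrays labelled replicate 1 and low on the 2 labelled replicate 2, while their duplicates in the table differed by at most 0.09 in size. The 2 scanner arrays labelled replicate 1 nearly matched each other, so the same direction in both lines is not 2 separate observations. Hmox1, the heme-degrading enzyme, read 4.32 and 3.02 in EV-50 and 4.26 and 2.67 in shGR-19. Over all probes, 4.72% differed by more than 2-fold between duplicates in the same direction in both lines on the scanner arrays, and 0.708% by more than 4-fold. Of the 50 transporter probes, 4 did so at 2-fold, namely both probes of Slc30a1, that of Slc39a10 and a dim probe of Slc30a9, and both Slc30a1 probes exceeded 4-fold. Among 89 other metal and vitamin genes, 8 did so at 2-fold. Only 2 of these 8 were among the 5 metallothionein and metal response genes. In the table, 0.29% of all probes and 0 of the 50 differed in that way at 2-fold, and 0.0164% of all probes did at 4-fold.

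**Figure D4:**
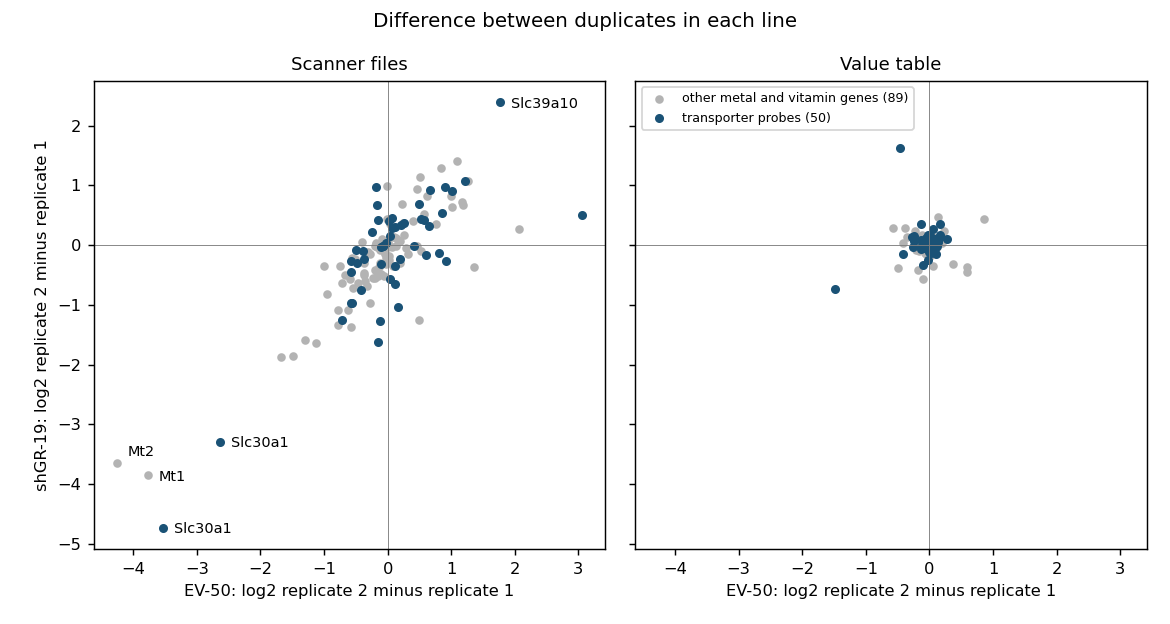
Difference between duplicates (log2, replicate 2 minus replicate 1) in EV-50 on the horizontal axis and in shGR-19 on the vertical axis, for the 50 transporter probes and 89 other metal and vitamin genes, from the scanner files (left) and the value table (right). On the left, Slc30a1, Mt1 and Mt2 lie far down in both lines and Slc39a10 far up, and on the right the point lowest in both lines is the dim Slc19a3 probe, at -1.49 and -0.73.

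The promoters of these zinc-regulated genes are shown because MTF-1 binds there, and the capitals mark each match to the core of a metal response element, TGCACNC or TGCGCNC on either strand. They are the 250 bases before the start of each gene from RefSeq on GRCm38.p6.
Slc30a1, chr1:191906531-191906780, plus strand: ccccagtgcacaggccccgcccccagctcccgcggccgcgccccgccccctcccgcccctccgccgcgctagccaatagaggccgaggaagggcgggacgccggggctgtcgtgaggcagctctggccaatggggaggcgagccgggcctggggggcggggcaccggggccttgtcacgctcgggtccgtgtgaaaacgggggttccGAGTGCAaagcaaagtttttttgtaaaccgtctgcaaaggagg
Mt1, chr8:94178839-94179088, plus strand: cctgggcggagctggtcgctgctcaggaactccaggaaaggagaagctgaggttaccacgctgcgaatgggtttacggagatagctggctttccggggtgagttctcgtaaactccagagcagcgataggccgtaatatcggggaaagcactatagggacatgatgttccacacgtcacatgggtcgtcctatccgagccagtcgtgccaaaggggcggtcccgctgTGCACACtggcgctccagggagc
Mt2, chr8:94172368-94172617, plus strand: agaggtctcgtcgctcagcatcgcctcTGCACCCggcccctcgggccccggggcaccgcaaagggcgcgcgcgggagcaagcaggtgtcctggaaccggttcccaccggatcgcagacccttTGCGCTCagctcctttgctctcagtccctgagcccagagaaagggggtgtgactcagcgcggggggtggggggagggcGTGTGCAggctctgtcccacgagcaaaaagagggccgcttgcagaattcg
The windows held 1 match for Slc30a1, 1 for Mt1 and 3 for Mt2. RefSeq promoters were matched for 33 of the 40 transporter genes, 40 promoters in all, and 18 of them (45%) held the core, against 21.4% of 32851 promoters of the same length. The Slc39a10 promoters held none. A match to either pattern is a description of the sequence only, and a part of zinc, MTF-1 or GR in these values was not tested.

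Genes that act beside the carriers were taken from a list of 104, of which 99 were on the array and 89 were measurable. In the table, 2 of the 89 were higher and 2 lower by more than 2-fold with an adjusted p below 0.01, against 2.16% and 2.7% of genes. Aldh1l2, the mitochondrial enzyme that oxidizes formyltetrahydrofolate, differed by 1.11 (SE 0.090, limma adjusted p = 0.00685), and the vitamin D receptor Vdr by 1.07 (SE 0.051, limma adjusted p = 0.00363). The other, dimmer Aldh1l2 probe differed by 0.78 (limma adjusted p = 0.0221) and did not pass. Ceruloplasmin (Cp), the copper-containing ferroxidase that works with ferroportin, differed by -1.97 (SE 0.057, limma adjusted p = 0.00232). Without the limit on the fold, 5 genes passed as higher and 4 as lower, against 6.11% and 6.51%. The additional ones were Mt2 (0.83), Cubn (0.58) and Magt1 (0.49), which were higher, and Gsto2 (-0.88) and Steap1 (-0.57), which were lower. In the scanner files 0 of the 89 passed. There the brighter Aldh1l2 probe differed by 0.82, Vdr by 0.59 and Cp by -0.87, and for Cp the lines overlapped.

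By pathway, the table called 1 of 17 folate genes and 1 of 22 iron genes. The list that holds Vdr also had calls, and its count is not given here. From the other lists, the table called 0 of 5 metallothionein and metal response genes, 0 of 8 copper, 0 of 8 magnesium, 0 of 3 thiamine, 0 of 4 vitamin C and 0 of 17 genes for biotin, pantothenate, riboflavin and cobalamin. The transferrin receptor Tfrc, through which cells take up iron, differed by -0.05, and the ferritin chains Fth1 and Ftl1 by -0.22 and -0.28. None of the 3 passed.

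Genes within 1000000 bases of the 5 called transporters were also examined, against a background of 2.7% of genes called lower and 2.16% called higher. Around Slc39a4 on chromosome 15, 74 neighbouring genes had a median table difference of -0.19, with 5 called lower and 1 higher. Around Slc41a2 on chromosome 10, 11 neighbours had a median of 0.17 and 1 was called higher, namely Aldh1l2, the called folate gene above. Around Slc46a1 on chromosome 11, 2 of 48 neighbours were called lower, and around Slc23a3 on chromosome 1, 1 of 43 was called higher. Around Slc39a9 on chromosome 12, 0 of 21 neighbours were called.

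Markers of the mammary epithelium were present, with 8 of 9 passing the filter. The summed signal of all 9 was between 722 and 944 times the array's 75th percentile. Such a sum is set mostly by its brightest probes, so it serves to compare arrays and not lists of markers. Krt14 was the 1 called gene of these epithelial markers, lower in shGR-19 at -1.13 in the table. Mesenchymal genes differed with the lines. The 4 of 6 that passed the filter, Vim, Col1a2, Pdgfra and Pdgfrb, were called higher in shGR-19 from the table, between 1.16 and 3.27. The summed signal of all 6 was 1.96 and 6.55 on the EV-50 arrays and 1.96 and 49.8 on the shGR-19 arrays. The collagens Col1a1 and Col3a1 did not pass the filter, which asks for both arrays of a line, but are included in that sum. The brightest Col1a1 probe read -6.34 and -3.69 in EV-50 and -6.08 and 1.92 in shGR-19, high on the array labelled shGR-19 replicate 2 alone. Their part in the transporter differences was not tested. No immune, endothelial or adipocyte marker that passed the filter was called.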

How the data were processed

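Expression was measured on Agilent 1-colour whole mouse genome arrays, 2 of EV-50 and 2 of shGR-19, grouped by sample title. The deposited scanner files hold spot intensity values that the authors extracted with Agilent Feature Extraction 10.5.1.1 (per the labels), background-corrected by that program. The authors' value table holds log2 values, centred on each probe's median over the samples.

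From the scanner files, control spots and outlier-flagged spots were left out, spots of a probe were averaged, and log2 values were taken relative to each array's 75th percentile. For both sources, 24441 probes were kept, each read well above background by both arrays of EV-50, of shGR-19 or of each. Limma 3.58.1 (R 4.3.3, with statmod 1.5.0) was fitted with line as the only term, with Benjamini-Hochberg adjustment over all kept probes. A probe was called at more than 2-fold and an adjusted p below 0.01. The procedure was tried on data simulated with independent noise on each array. That trial cannot speak to noise shared between arrays or to wrongly labelled files. With 2 arrays per line an exact permutation test cannot give p below 0.333, so none was used. The number of arrays limits the precision.

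For a gene with several probes the brightest was used. All genes with a kept probe were named. Values on every array were given for genes past an adjusted p of 0.01 and 1.5-fold in either source and for the 4 largest differences, with Slc30a1 and Slc39a10 added after their values were seen. From the pathway list, the 3 largest increases and decreases past that adjusted p were named, and others were added after their values were seen. One of the called pathway genes is not reported here. The transporter set and all lists were chosen with earlier results of these data known. Alternatives were another background correction, normalization, filter, prior, threshold and probe summary, a replicate block, and leaving out each array.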

Additional observations from a re-analysis of the deposited data

How the results depend on the processing

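In the value table, the 5 transporter probes called and the 4 pathway genes called both fell to 0 with no filter on dim probes, to 0 with a replicate block, and to 0 (range 0 to 0) with any 1 column left out. The block and each fit with 1 column left out called 0 of all 24441 probes, and the fit with no filter called 15 higher and 28 lower of 41174. The differences themselves held: Slc39a4 stayed at -2.51 under the block and with no filter, and with 1 column left out it ran from -2.55 to -2.47, and Slc41a2 from 1.32 to 1.39. The block and each fit with 1 column left out have fewer residual degrees of freedom. The fit with no filter has more dim probes to adjust over, and its SE for Slc39a4 was 0.065 against 0.057. What part each of these had in the lost calls was not tested. The block gave adjusted p of 0.0294 for Slc39a4 and Slc41a2 and 0.0303 for Slc39a9. Without a limit on the fold, 9 pathway genes passed. Other settings of the table gave 4 to 7 transporter probes. The scanner files gave 0 transporter probes and 0 pathway genes under every setting that was tested, including those with 1 array left out (range 0 to 0). Restricted to arrays labelled replicate 2, a choice made after seeing the data and with no test, 7 transporter probes differed by more than 2-fold. Slc11a1 reversed from 0.71 on the scanner arrays to -1.48 in the table, and the cause was not tested. With 1 scanner array left out, the difference ran from -2.89 to 0.16 for Slc39a4, from -1.60 to 0.024 for Slc23a3, from -1.20 to 0.074 for Slc46a1, from -2.94 to 1.80 for Slc30a1 and from -0.91 to 1.48 for Slc39a10, each of which changed sign. In the table, the difference of Slc30a1 passed with probes kept only where well above background on all 4 arrays (adjusted p = 0.00951) and with an intensity trend and robust prior (adjusted p = 0.000369), and Slc39a9 averaged over its 2 probes was -0.68 and did not pass. Quantile normalization moved the median of all table probes from 0.01 to 0.10. Arrays of the same replicate number deviated together with a correlation of 0.574 on the scanner arrays and 0.0556 in the table; the labels do not say that a number marks a shared batch, so the numbers were not taken to pair the samples.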
